A study of Homo sapiens with 3 samples.

Results

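Cholesterol and fatty acid synthesis was followed through 34 genes that encode the enzymes of the mevalonate and sterol steps, the regulators of the SREBP transcription factors, sterol carriers, and the enzymes that make and desaturate fatty acids. The genes were chosen by name and looked up by symbol in the expression tables, and all 34 were listed in all 3 libraries, among 18856 genes listed in at least 1. The libraries came from 2 human cell lines. HBE is a line of bronchial epithelial cells, and A549 is a line of alveolar basal epithelial cells from a lung adenocarcinoma. HBE and A549 were each sequenced by LIEA (Low-Input, Equal-Amplification RNA-seq), in which fragmented mRNA receives adapters directly and each library molecule is then amplified on its own bead for semiconductor sequencing. HBE was also sequenced by Smart-seq2, in which full-length cDNA is primed from the polyA tail and pre-amplified before Illumina sequencing. Each library was made from 10 pg of polyA+ mRNA, diluted from a bulk preparation, and no treatment is named for either line. The growth medium is not given in the sources used here. With 1 library per condition no test was possible. A difference was therefore called at 2-fold, and the 95% intervals given with log2 ratios are exact binomial intervals that cover counting error only, since PCR reads without molecular identifiers are not independent molecules. Each library stands for 1 RNA sample of 1 line, and in such a bulk sample fewer expressing cells and less RNA per cell cannot be told apart.

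Cells make cholesterol from acetyl-CoA through mevalonate, isoprenoid phosphates and squalene, and the sterol ring is then trimmed and reduced to cholesterol. When sterols are scarce in the endoplasmic reticulum, SCAP escorts the SREBP proteins to the Golgi, where they are cut and released to switch on the genes of both pathways, while INSIG proteins hold them back when sterols are plentiful. Fatty acid synthesis draws on the same acetyl-CoA, which ACLY and ACSS2 supply, and its products are elongated and desaturated for membranes, storage lipids and, in the lung, surfactant.

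Levels are rpkM, read counts scaled to transcript length and library total, and most are given as log2 rpkM. Total mapped reads were 4605855 for HBE LIEA, 4154060 for A549 LIEA and 9845150 for HBE Smart-seq2. A gene without reads may hold up to 3 reads, which corresponds to 0.651, 0.722 and 0.305 RPM (reads scaled to 1000000 mapped reads), in the same order. The markers of the lines matched their labels. Their lists were chosen with earlier results of these data known, so the match is no independent check. The 8 basal airway markers summed to 4209 and 12499 RPM in the HBE libraries and to 46.0 in A549, where KRT14 had no reads. The 8 markers of A549 summed to 37864 RPM in A549 and to 1676 and 3214 in the HBE libraries. Markers of fibroblasts, leukocytes, endothelium, and adipocytes and hepatocytes summed to between 2.89 and 75.3 RPM in every library. COL1A2, DCN, CD3E and CYP7A1 had no reads in any library, but other genes of these lists had reads in all 3. COL1A1 had 175 reads in HBE LIEA, 93 in A549 and 85 in HBE Smart-seq2. In the same order, CD14 had 62, 180 and 52, CD68 had 151, 71 and 326, LYZ had 46, 60 and 242, and SERPINA1 had 19, 7 and 30. CDH5, an endothelial cadherin, had 103 and 180 reads in the HBE libraries and 0 in A549. The endothelial list thus moved with the line, at 30.6 RPM in HBE LIEA, 2.89 in A549 and 27.8 in HBE Smart-seq2, and its part in the differences between lines was not tested. In Smart-seq2, MTRNR2L genes, which resemble mitochondrial ribosomal RNA, held 3.84% of the total against 0.131% in HBE LIEA and 0.623% in A549.

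Most of the lipid synthesis genes lay above the median gene in every library. Their median level was 4.75 log2 rpkM in HBE LIEA, 4.47 in A549 LIEA and 4.44 in HBE Smart-seq2, against 3.27, 3.10 and 2.84 over all genes with at least 10 reads. Of the 34 genes, 28, 28 and 30 lay above that median. Reads ranged from 14 to 14627 per gene in HBE LIEA, from 15 to 7240 in A549 LIEA and from 44 to 8426 in Smart-seq2, so all 34 passed the minimum of 10 reads in every library.

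**Figure D1:**
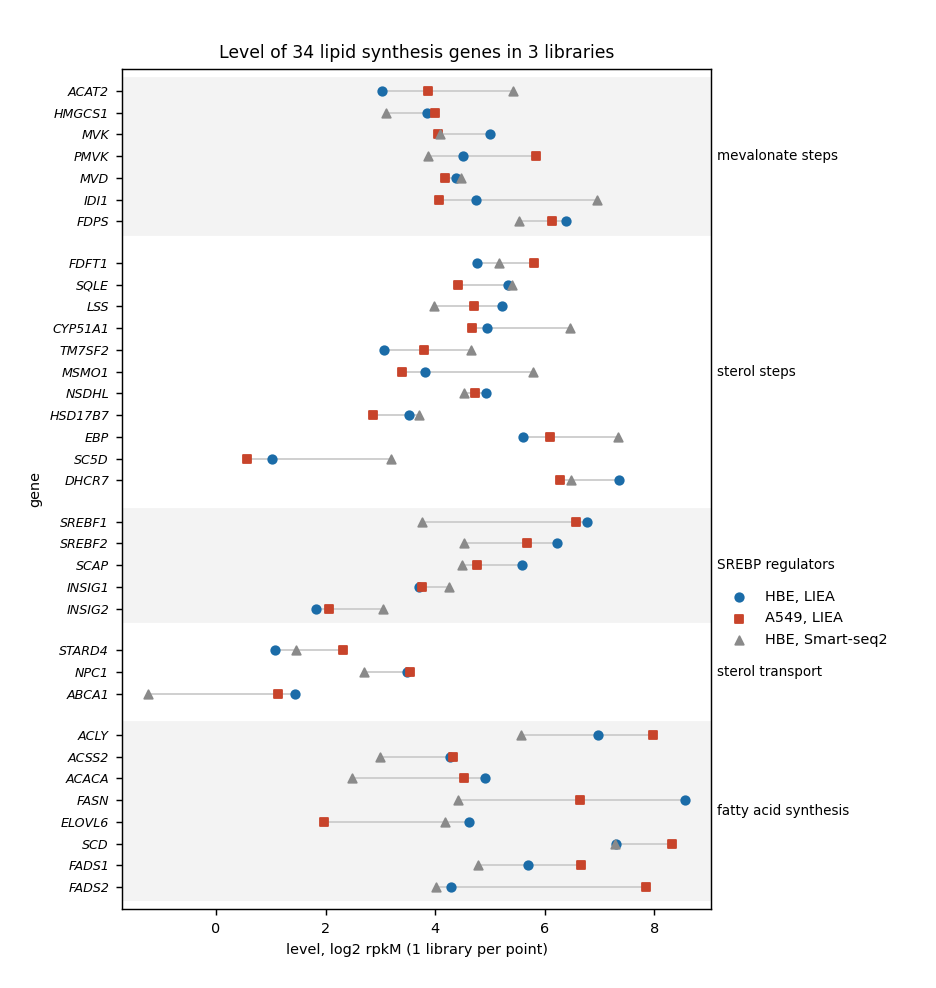
Level of each of the 34 genes on the horizontal axis, in log2 rpkM, with 1 point per library and a grey line joining the lowest to the highest. FADS2 and ELOVL6 are the genes whose A549 point stands farthest from both HBE points, while FASN and SREBF1 have their Smart-seq2 point far below both LIEA points.

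The first comparison asked how the pathway differs between the cancer line and the bronchial line by the same method. In A549, the desaturase gene FADS2 was 11.8-fold higher than in HBE and the elongase gene ELOVL6 was 6.26-fold lower, and every other gene of the 34 differed by less. In all, 6 of the 34 genes (17.6%) were at least 2-fold higher in A549, namely PMVK, FDFT1, STARD4, ACLY, SCD and FADS2. That share was close to the 18.1% of 12967 genes tested over the whole table. DHCR7, FASN and ELOVL6, or 8.82% of the 34, were at least 2-fold lower, against 20.2% of all genes. The other 25 genes differed by less than 2-fold. The median log2 ratio of A549 to HBE was -0.21 over the 34 genes and -0.15 over all genes, and 15 of the 34 ratios (44.1%) lay above 0, against 44.2% of all genes. The counts depend on the scale. Rescaled to TPM, which gives every library the same sum, 3 of the 34 were at least 2-fold higher and 5 lower, against 15.8% and 25% of all genes. Centred on the median of all genes, 7 were higher and 2 lower, against 20.6% and 16.5%. PMVK, FASN, ELOVL6 and FADS2 passed 2-fold on every scale tried, whereas FDFT1, ACLY, SCD and DHCR7 lay just past the threshold and each dropped under it on 1 of these scales.

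**Figure D2:**
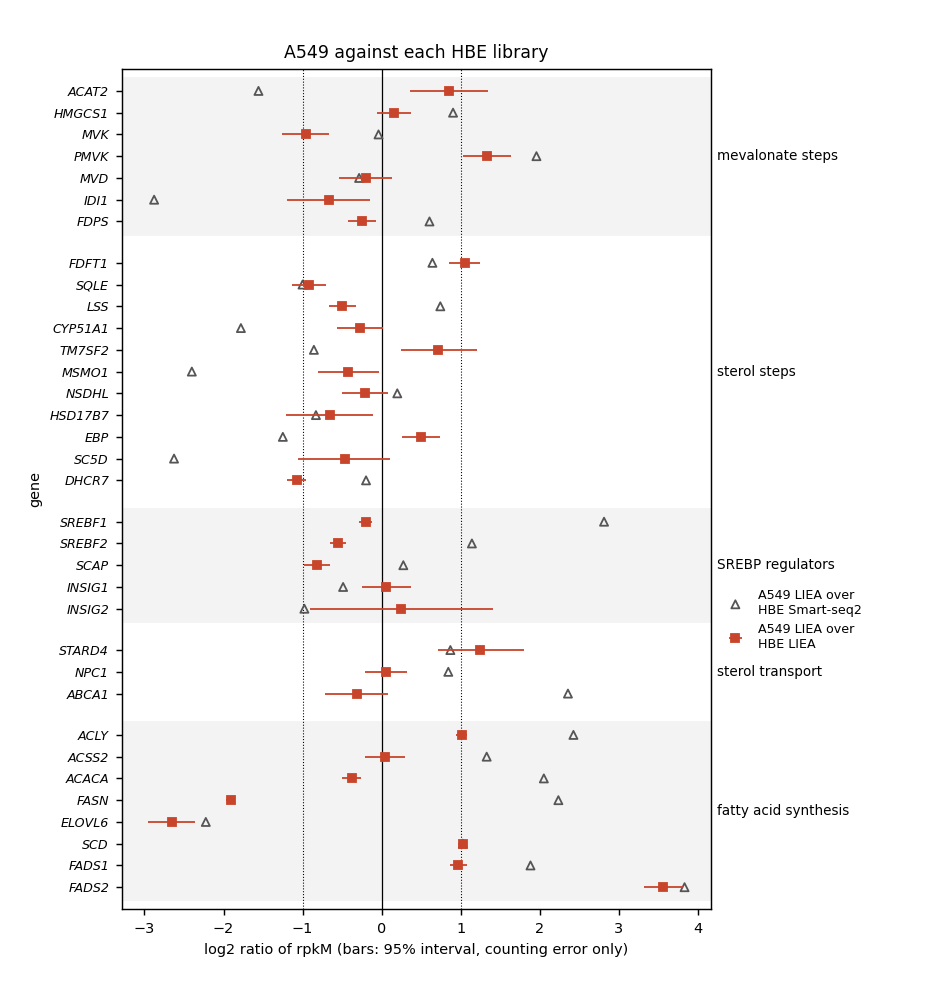
Log2 ratio of A549 LIEA to HBE LIEA (squares, with bars for the 95% interval from counting error) and of A549 LIEA to HBE Smart-seq2 (triangles), with dotted lines at 2-fold. Both symbols lie past the dotted line on the same side for PMVK, ACLY, SCD and FADS2 (right) and for ELOVL6 (left), and the FASN symbols lie on opposite sides.

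HBE was sequenced by both methods, so the second comparison asked which A549 levels were at least 2-fold above, or below, both HBE libraries. The 2 comparisons share the A549 library, so their values are given side by side and not as independent evidence. PMVK, ACLY, SCD and FADS2 (11.8% of the 34) were at least 2-fold higher in A549 than in both HBE libraries, against 12.1% of 13273 genes. ELOVL6 alone among the 34 (2.94%) was at least 2-fold lower than in both, against 12.7% of genes. The rule does not measure a difference against the distance between the HBE libraries. For ACLY that distance was 1.41 on the log2 scale, above its log2 ratio of 1.01 between the lines. For PMVK, SCD, FADS2 and ELOVL6 the distance was smaller than the difference between the lines. For 14 of the 34 genes (41.2%) the A549 level lay between the HBE levels, against 30.5% of genes. SCD left the higher group when MTRNR2L reads were taken out of the totals, and both ACLY and SCD left it on the TPM scale.

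**Figure D3:**
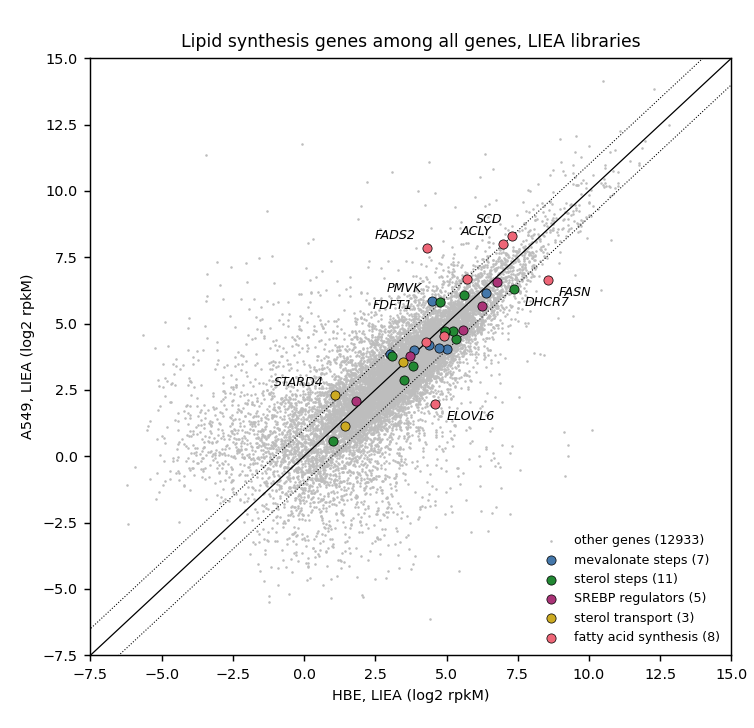
Level in HBE LIEA (horizontal) against A549 LIEA (vertical), both in log2 rpkM, for the genes tested, with equality as a solid line and 2-fold as dotted lines. The 9 labelled lipid synthesis genes lie outside the dotted lines, FADS2 farthest above and ELOVL6 farthest below among the coloured points, and many other genes lie farther out.

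The promoter windows of 5 genes are shown here. These are the windows of the members at least 2-fold higher, or lower, in A549 than in both HBE libraries by rpkM. Each is the 250 bases before an annotated start on the gene's strand, from RefSeq on GRCh38.p14. The first start listed for a gene was used, and any other starts were not searched. They cover chr1:154936720-154936969 (PMVK, minus strand), chr17:41919023-41919272 (ACLY, minus), chr4:110198616-110198865 (ELOVL6, minus), chr10:100346983-100347232 (SCD, plus) and chr11:61815953-61816202 (FADS2, plus). Capitals mark matches, on either strand, to the 4 motifs spelled out after the sequences.
PMVK: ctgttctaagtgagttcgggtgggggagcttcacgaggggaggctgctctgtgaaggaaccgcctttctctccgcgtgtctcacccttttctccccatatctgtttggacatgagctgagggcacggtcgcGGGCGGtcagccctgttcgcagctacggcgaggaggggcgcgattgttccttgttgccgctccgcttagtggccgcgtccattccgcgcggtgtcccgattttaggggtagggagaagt
ACLY: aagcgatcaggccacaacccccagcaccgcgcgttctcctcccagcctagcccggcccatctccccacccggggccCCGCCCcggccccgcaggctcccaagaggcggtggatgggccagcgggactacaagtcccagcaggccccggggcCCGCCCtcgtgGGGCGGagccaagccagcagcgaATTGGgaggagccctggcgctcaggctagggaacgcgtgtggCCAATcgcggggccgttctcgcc
ELOVL6: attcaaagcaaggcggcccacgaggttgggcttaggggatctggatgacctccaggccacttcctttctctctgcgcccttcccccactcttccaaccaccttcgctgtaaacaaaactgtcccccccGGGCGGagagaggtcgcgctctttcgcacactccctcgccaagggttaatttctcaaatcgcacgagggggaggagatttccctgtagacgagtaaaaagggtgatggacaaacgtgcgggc
SCD: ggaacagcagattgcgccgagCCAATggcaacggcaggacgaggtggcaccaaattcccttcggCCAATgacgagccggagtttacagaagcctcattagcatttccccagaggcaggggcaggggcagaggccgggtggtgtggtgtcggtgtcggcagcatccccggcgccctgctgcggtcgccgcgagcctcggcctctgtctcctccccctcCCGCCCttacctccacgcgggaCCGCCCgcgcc
FADS2: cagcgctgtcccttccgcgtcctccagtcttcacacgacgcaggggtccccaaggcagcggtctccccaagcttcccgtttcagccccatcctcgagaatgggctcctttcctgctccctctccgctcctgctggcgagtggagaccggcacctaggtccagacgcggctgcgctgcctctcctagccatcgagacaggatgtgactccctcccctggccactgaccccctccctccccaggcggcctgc
Matches were searched on both strands, and none of the motifs contains another. ACLY and SCD each held 2 CCAAT boxes, with 3 and 2 GC boxes, and PMVK and ELOVL6 held 1 GC box each. The FADS2 window at the start used held none of the 4 motifs. Whether that window precedes the start of the GRCh37 span given for FADS2 below was not checked. The motifs and the windows were chosen after the levels were seen. RefSeq windows were matched for 30 of the 34 genes, and FDFT1, SQLE, FASN and ACAT2 had no entry. Over these 30 windows, the CCAAT box, searched by the letters of its name, was found in 18 (60.0%) against 33.0% of all 27305 windows and 34.5% of the 15843 of protein-coding genes. The GC box, GGGCGG, was found in 28 (93.3%) against 42.3% and 56.0%. The E-box CACGTG was found in 4 (SC5D, SCAP, INSIG1 and ABCA1, 13.3%) against 6.49% and 7.84%. The SRE-like motif TCACNCCAC was found in 1, that of SREBF2 (3.33%), against 0.875% and 0.884%. A match is only a run of letters in a fixed window. The windows with and without a 2-fold difference were not tested against each other.

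In the mevalonate steps, PMVK was the member that differed most between the lines. PMVK, which phosphorylates mevalonate for the second time, had 136 reads in HBE LIEA, 308 in A549 and 188 in HBE Smart-seq2, or 4.51, 5.83 and 3.88 log2 rpkM. A549 was the highest of the 3 libraries, 2.51-fold above HBE LIEA (log2 ratio 1.33, interval 1.03 to 1.63) and 3.88-fold above Smart-seq2. MVK, the kinase just before it, was instead highest in HBE LIEA, with 5.0 in HBE LIEA, 4.04 in A549 and 4.08 in Smart-seq2. The log2 ratio of A549 to HBE LIEA for MVK was -0.96 (-1.26 to -0.67), just under 2-fold, and it passed 2-fold on the TPM scale. A549 and HBE Smart-seq2 were nearly level for this gene, with a log2 ratio of -0.04.

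The other mevalonate genes differed by less between the lines than between the HBE libraries, apart from MVD. ACAT2, the acetyl-CoA thiolase of the cytosol, was 0.85 higher on the log2 scale in A549 than in HBE LIEA (0.36 to 1.34) but lay at 3.87 log2 rpkM against 5.42 in Smart-seq2. IDI1, which isomerises the isoprenoid unit, lay at 4.75 log2 rpkM in HBE LIEA, 4.08 in A549 and 6.96 in Smart-seq2, with 88, 50 and 871 reads. HMGCS1, a synthase early in the mevalonate steps, lay at 3.85, 4.0 and 3.10, and its ratio of A549 to HBE LIEA had an interval through 0 (-0.06 to 0.37). MVD, the decarboxylase, lay at 4.38, 4.18 and 4.46 in the 3 libraries. FDPS, which joins the units into farnesyl diphosphate, was the highest of the 7 in both LIEA libraries at 6.39 and 6.14, and lay at 5.53 in Smart-seq2. Together the 7 genes took 372, 371 and 367 RPM in HBE LIEA, A549 LIEA and HBE Smart-seq2.

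Of the 11 genes of the sterol steps, the one that opens the branch was higher in A549 and the last was lower. FDFT1, squalene synthase, had 332 reads in HBE LIEA, 620 in A549 and 942 in the deeper Smart-seq2 library, which are 4.76, 5.81 and 5.17 log2 rpkM. A549 was 2.07-fold above HBE LIEA (1.05, 0.86 to 1.25) and 1.56-fold above Smart-seq2, and on the TPM scale the first of these log2 ratios was 0.89. DHCR7, the reductase of the last step in this list, had 2016, 863 and 2346 reads, or 7.36, 6.28 and 6.48 log2 rpkM. A549 was 2.11-fold below HBE LIEA for DHCR7 (-1.08, -1.19 to -0.96) and 1.15-fold below Smart-seq2, so HBE LIEA was the library that stood apart. When ratios were centred on the median of all genes, the DHCR7 ratio was -0.92. DHCR7 had the highest level of the 11 in both LIEA libraries.

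The remaining 9 sterol genes differed by less than 2-fold between the lines by rpkM. SQLE, the epoxidase that prepares squalene for ring closure, was the nearest to the threshold, with 5.33 in HBE LIEA, 4.41 in A549 and 5.41 in Smart-seq2. Its A549 level was the lowest of the 3, 1.90-fold below HBE LIEA and 2.0-fold below Smart-seq2, and on the TPM scale the log2 ratio to HBE LIEA was -1.08, past 2-fold. LSS, which closes the ring, had a log2 ratio of A549 to HBE LIEA of -0.50, and CYP51A1, the demethylase that follows, one of -0.27 with an interval through 0 (-0.57 to 0.02). Of the genes that trim and reduce the ring, TM7SF2 and EBP were on the higher side in A549, with log2 ratios of 0.72 (0.24 to 1.21) and 0.49 (0.25 to 0.73). MSMO1, NSDHL, HSD17B7 and SC5D were on the lower side with -0.42, -0.21, -0.65 and -0.47, and the intervals of NSDHL and SC5D contained 0. SC5D, a desaturase, had the lowest level of the group in all 3 libraries, with 66, 43 and 629 reads. The 11 genes together took 1025, 766 and 1143 RPM in HBE LIEA, A549 LIEA and HBE Smart-seq2.

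None of the 5 SREBP regulators differed by 2-fold between the lines, and for all 5 the A549 level lay between the HBE levels. Over all genes, 61.8% differed by less than 2-fold and 30.5% lay between. SREBF1, which encodes the SREBP best known for fatty acid genes, had 2528, 1979 and 668 reads, or 6.78, 6.57 and 3.76 log2 rpkM. SREBF2, which encodes the SREBP best known for sterol genes, had 2003, 1229 and 1321 reads, or 6.23, 5.68 and 4.54. For both genes the LIEA libraries lay closer to each other than to Smart-seq2, which lay below them. The log2 ratio of A549 to HBE LIEA was -0.20 (-0.29 to -0.12) for SREBF1, -0.56 (-0.66 to -0.45) for SREBF2 and -0.82 (-0.98 to -0.66) for SCAP, their escort. INSIG1 and INSIG2, the sterol-dependent brakes, had ratios of 0.06 (-0.25 to 0.37) and 0.25 (-0.90 to 1.41). INSIG2 rested on 14 and 15 LIEA reads, so its interval still held a level 2-fold higher in A549 and one at no difference. SREBF1 was 1.46 times SREBF2 by rpkM in HBE LIEA and 1.86 times in A549, but 0.585 times in HBE Smart-seq2, so the order of the pair changed with the method. The 5 genes together took 1230, 933 and 362 RPM in HBE LIEA, A549 LIEA and HBE Smart-seq2.

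Among the sterol carriers, STARD4, which moves cholesterol through the cytosol, was higher in A549. It had 44 reads in HBE LIEA, 94 in A549 and 122 in Smart-seq2, or 1.08, 2.32 and 1.45 log2 rpkM. A549 was the highest of the 3, 2.37-fold above HBE LIEA (1.24, 0.71 to 1.79) and 1.83-fold above Smart-seq2. On the log2(rpkM + 1) scale, which shrinks low levels, the STARD4 ratio was 0.95. NPC1, which exports cholesterol from lysosomes, lay at 3.48, 3.54 and 2.70 in the 3 libraries, and ABCA1, the exporter to apolipoproteins, at 1.44, 1.12 and -1.23. The intervals of both A549 to HBE LIEA ratios contained 0. The 3 genes together took 91.8, 102 and 48.1 RPM.

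Of the 5 roles, fatty acid synthesis held the largest differences in both directions. Of its 8 genes, ACLY, SCD and FADS2 were at least 2-fold higher in A549 and FASN and ELOVL6 at least 2-fold lower. ACLY, which splits citrate into acetyl-CoA, had 2515 reads in HBE LIEA, 4576 in A549 and 2020 in Smart-seq2, or 6.97, 7.98 and 5.56 log2 rpkM. A549 was 2.02-fold above HBE LIEA (1.01, 0.94 to 1.08) and 5.37-fold above Smart-seq2, and the first log2 ratio was 0.85 on the TPM scale. ACSS2, which makes acetyl-CoA from acetate, lay at 4.28, 4.32 and 3.0, and ACACA, the carboxylase that makes malonyl-CoA, at 4.92, 4.53 and 2.48. Neither of these reached 2-fold between the lines by LIEA, and A549 was higher than Smart-seq2 for both, by 2.51-fold and 4.14-fold. The 8 genes together took 5389, 4862 and 1598 RPM in HBE LIEA, A549 LIEA and HBE Smart-seq2.

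FASN, the fatty acid synthase, gave opposite answers against the HBE libraries. It had 14627 reads in HBE LIEA, 3512 in A549 and 1769 in HBE Smart-seq2, or 8.55, 6.64 and 4.41 log2 rpkM. A549 was 3.76-fold below HBE LIEA (-1.91, -1.96 to -1.86) and 4.71-fold above HBE Smart-seq2, so its level lay between those of the same line by 2 methods. FASN alone made up 39.2% of the reads of the 34 genes in HBE LIEA, 12.02% in A549 and 5.11% in Smart-seq2. The 34 genes together took 8108, 7033 and 3518 RPM, a log2 ratio of A549 to HBE LIEA of -0.21. Without FASN, a split chosen after seeing the data, the sums were 4932, 6187 and 3338, and the log2 ratio of A549 to HBE LIEA turned to 0.33.

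ELOVL6, which lengthens the main product of FASN, was low in A549 against either HBE library. It had 764 reads in HBE LIEA, 110 in A549 and 1218 in Smart-seq2, or 4.61, 1.96 and 4.19 log2 rpkM. A549 was 6.26-fold below HBE LIEA (-2.65, -2.95 to -2.36) and 4.67-fold below Smart-seq2, and its ratio to HBE LIEA was the 561st lowest of 12967 genes. The HBE libraries differed by 0.42 for this gene. SCD, the desaturase that makes monounsaturated fatty acids, was the most abundant member in A549, at 8.32 log2 rpkM with 7240 reads. SCD lay at 7.29 in both HBE libraries, with 3951 reads by LIEA and 8426 by Smart-seq2, so A549 was 2.03-fold and 2.04-fold above them. The first of these log2 ratios was 1.02 (0.97 to 1.08), or 0.86 on the TPM scale. SCD was 6.42 times ELOVL6 by rpkM in HBE LIEA, 8.58 times in HBE Smart-seq2 and 81.7 times in A549.

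FADS2, the desaturase that starts the making of polyunsaturated fatty acids, showed the largest difference of the 34. It had 152 reads in HBE LIEA, 1614 in A549 and 269 in Smart-seq2, or 4.30, 7.85 and 4.02 log2 rpkM. The HBE levels lay 0.27 apart and above the median gene of each library, and A549 was 11.8-fold (3.56, 3.32 to 3.81) and 14.2-fold above them. The ratio to HBE LIEA was the 453rd highest of the 12967 genes tested. FADS1, the desaturase that acts later in the same pathway, had 1060, 1869 and 1202 reads, or 5.70, 6.67 and 4.79. A549 was 1.95-fold above HBE LIEA for FADS1 (0.97, 0.86 to 1.08), 3.69-fold above Smart-seq2, and past 2-fold when ratios were centred on the median of all genes. FADS2 was 0.377 times FADS1 by rpkM in HBE LIEA, 0.589 times in Smart-seq2 and 2.27 times in A549. The pair lies on chromosome 11 of GRCh37, FADS2 from 61560452 to 61634826 on the plus strand and FADS1 from 61567099 to 61596790 on the minus strand. FADS1 thus falls inside the annotated span of FADS2, and how the counting treated strand is not given in the sources used here. The length that fitted the FADS2 values was 1679 nt. This length divides the reads of all libraries alike and so cancels in the ratios. Whether reads outside this reference were missed to the same extent in each library was not tested.

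The distance between the methods was then described for HBE alone, where the same line was read by both. Over the 34 genes, the median log2 ratio of HBE LIEA to HBE Smart-seq2 was 0.41, against 0.04 over all genes. LIEA was at least 2-fold higher for 9 genes (26.5%), against 28.1% of 13300 genes, and at least 2-fold lower for 8 (23.5%), against 21.9%. The median absolute log2 ratio of the 34 genes was 1.01 between the methods and 0.60 between the lines, and over all genes it was 1.0 and 0.76. For 22 of the 34 genes the methods differed by more than the lines did, and for 12 by less.

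The genes that LIEA read higher included FASN by 17.7-fold (4.14, 4.07 to 4.22), SREBF1 by 8.09-fold, ABCA1 by 6.36-fold and ACACA by 5.40-fold. Those that Smart-seq2 read higher included ACAT2 by 5.29-fold, IDI1 by 4.63-fold, SC5D by 4.46-fold and MSMO1 by 3.94-fold. The first 4 had transcripts of 5001 to 10663 nt. Of the other 4, ACAT2, IDI1 and MSMO1 had 712 to 2228 nt, but SC5D had 7019 nt. Across the 34 genes, the ratio of LIEA to Smart-seq2 had a Spearman rho of 0.59 with transcript length (Pearson's r 0.63) and 0.52 with GC content (0.53), and over all genes the rho was 0.26 and 0.37. Genes are not independent replicates, and all points share the same pair of libraries. Split at 3000 nt after the values were seen, 14 of the 17 longer genes and 6 of the 17 shorter genes read higher by LIEA, with median log2 ratios of 1.09 and -0.18. Of 11 genes under 45% GC, 2 read higher by LIEA (median -1.23), and of 12 with at least 55% GC, 10 did (0.90). The ratio of A549 to HBE LIEA had a rho of -0.21 with length and -0.05 with GC content over the 34 genes. The part of length and GC content in the differences between methods was not tested.

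**Figure D4:**
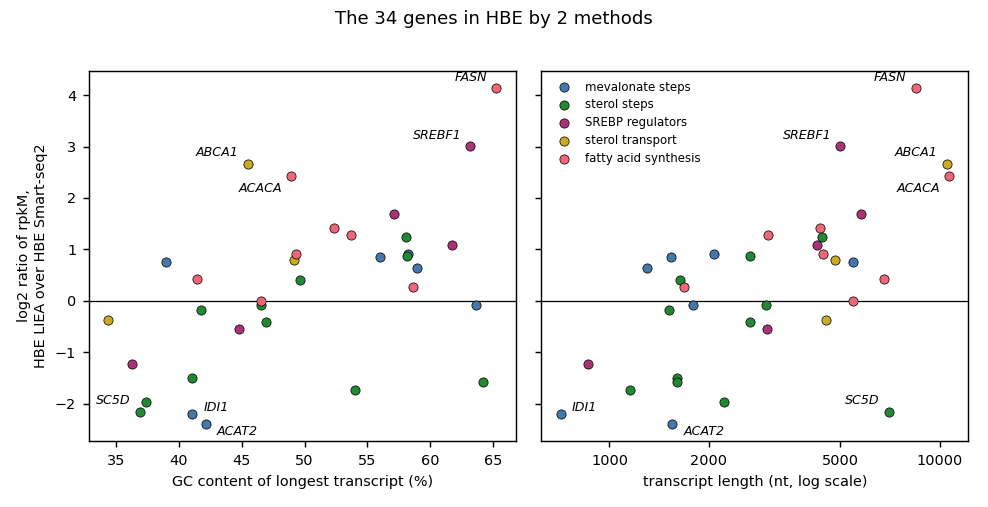
Log2 ratio of HBE LIEA to HBE Smart-seq2 for the 34 genes (vertical) against GC content in percent (left) and transcript length in nt on a log axis (right), coloured by role. FASN, SREBF1, ABCA1 and ACACA lie at the top and at long transcripts, and ACAT2, IDI1 and SC5D at the bottom and at low GC content.

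Genes around the pathway were counted in 6 further lists of 91 genes, of which 85 could be tested between the LIEA libraries. Of these, 12 (14.1%) were at least 2-fold higher in A549 and 12 (14.1%) lower, against 18.1% and 20.2% of all genes, and their median log2 ratio was 0.08. In SREBP processing, sterol sensing and LXR, 2 of 14 genes were higher and 0 lower, the ER-associated degradation factors UBXN8 (1.69, 0.66 to 2.83) and ERLIN2 (1.56, 1.18 to 1.95), while NR1H2, an LXR, lay under 2-fold at 0.96. Of 14 genes of sterol uptake, trafficking and esterification, 4 were higher and 2 lower. ABCG2, an exporter, was 5.69-fold higher with 106 reads in HBE LIEA, 544 in A549 and 334 in Smart-seq2, and CAV1, the coat protein of caveolae, was 4.09-fold lower with 2634, 581 and 5012 reads. VLDLR, a lipoprotein receptor, was 4.08-fold higher on 19 and 70 LIEA reads, and Smart-seq2 had 1 read.

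The isoprenoid branches, which lead from farnesyl diphosphate to ubiquinone, dolichol and prenylated proteins, had 0 of 11 genes higher and 2 lower. These were PDSS1 (-1.13) and COQ2 (-1.12), both of ubiquinone synthesis, and NUS1, of dolichol synthesis, lay at -0.95. Other fatty acid elongation and supply had 3 of 17 genes higher and 2 lower. ME1, malic enzyme, which supplies NADPH, was higher by 1.71 on the log2 scale, PTPLAD1, an elongation dehydratase, by 1.28, and ELOVL4 was lower on 24 reads in HBE LIEA and 3 in A549 (-2.85, -5.23 to -1.13). By HBE Smart-seq2, ME1 lay at 4.72 log2 rpkM, near its 4.98 in A549, and PTPLAD1 at 4.79 against 5.89 in A549. Fatty acid activation and glycerolipids had 1 of 16 higher, the phosphatidate phosphatase LPIN2 (2.86, 2.36 to 3.39), and 4 lower, among them the acyl-CoA synthetase ACSL1 (-1.34, -1.63 to -1.05) and the fatty acid receptor CD36 (-1.44), whose interval contained 0. By HBE Smart-seq2, LPIN2 lay at -1.24 log2 rpkM, ACSL1 at 3.52 and CD36 at -0.45, against 3.27, 3.01 and -2.30 in A549. Fatty acid oxidation had 2 of 13 higher and 2 lower. CPT1A, which commits fatty acids to the mitochondrion, was 7.23-fold higher with 139, 907 and 110 reads, ACADS was higher by 1.22 on the log2 scale, and CPT2, the partner of CPT1A in the inner membrane, was 2.51-fold lower with 248, 89 and 376 reads. ACADS lay at 3.53 log2 rpkM in HBE LIEA, 4.75 in A549 and 4.31 in HBE Smart-seq2. In the same order, CPT1A lay at 2.52, 5.38 and 1.09, and CPT2 at 4.12, 2.79 and 3.63.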

How the data were processed

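The expression tables of 3 libraries (HBE LIEA, A549 LIEA, HBE Smart-seq2) were analysed. The deposited values are log2 rpkM, which the authors made by mapping reads with FANSe2 to RefSeq-RNA sequences with splice variants merged (the genome build in the labels is hg19). Genes without reads are not listed. The design assumed read counts, so reads were recovered here from the log2 values as whole multiples of 1 read. All 18856 genes gave whole reads in at least 1 library, but the settings were tuned until recovered reads summed to 99.3%, 99.7% and 99.8% of the totals, so those sums are no independent check. On simulated data of 18337 genes, all 3 totals were found and 94.5% of genes got exact reads. For 1649 genes, STARD4 and ELOVL6 among them, a common factor above 1 had to be chosen, on which their intervals depend. Per library, 4 rows with repeated names were left out.

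Ratios are differences of log2 rpkM without pseudocount over genes listed in both libraries with at least 10 reads in 1 of them. Intervals are 95% Clopper-Pearson. Transcript lengths are those recovered from the rpkM values together with the reads, GC content is that of the longest transcript in GENCODE 44 lifted to GRCh37, and promoters came from RefSeq. No test was run, as 1 library per condition was analysed here. Calculations ran in Python 3.11.15 with pandas 2.3.3, scipy 1.17.1 (intervals), numpy 2.4.6 and, for plots, matplotlib 3.10.9. Named were the members 2-fold apart by LIEA with values in every library, the other members more briefly, and up to 3 genes of each further list by absolute log2 ratio. The members and lists were chosen with earlier results of these data known. Alternatives covered scale, minimum of reads, pseudocount, MTRNR2L reads in the totals, recovered reads and fold.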

Additional observations from a re-analysis of the deposited data

How the results depend on the processing

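FADS2, ELOVL6, FASN and PMVK stayed past 2-fold in all 7 alternatives of scale, minimum of reads, pseudocount, totals and recovered reads, and FDFT1, DHCR7, STARD4, ACLY and SCD in 6 each. The minimum of reads and the recovered reads leave the log2 rpkM ratio of a single gene unchanged. Only scale, pseudocount and totals could therefore have moved these genes. On the TPM scale, which shifts every log2 ratio by -0.16, the genes at least 2-fold higher in A549 LIEA than HBE LIEA went from 6 to 3, those lower from 3 to 5, and those higher than both HBE libraries from 4 to 2. Over all genes the shares went from 18.1% to 15.8%, from 20.2% to 25% and from 12.1% to 11.1%. HMGCS1, INSIG1, NPC1 and ACSS2, all near 0, change sign on that scale. At 1.5-fold the counts were 9 higher, 8 lower, 7 higher than both and 4 lower than both, against 26%, 33.6%, 17.5% and 21.2% of all genes. At 4-fold they were 1, 1, 1 and 1, against 8.44%, 6.68%, 5.33% and 4.24%. The median log2 ratio of A549 to HBE LIEA ranged from -0.36 to -0.05 and that of LIEA to Smart-seq2 from 0.36 to 0.61. The log2 ratio of summed reads went from -0.21 to 0.33 without FASN. Of 237 values of single genes under alternatives, 221 stayed within the counting interval. The minimum of reads and the recovered reads could not change these values. The TPM scale, centring and totals shift all genes alike, so staying within depended there on the width of the interval. The count is therefore no measure of stability. No paired analysis was possible because the tables used here hold 1 library per line and method, which also left no replicate to leave out, so variation between cultures or preparations is not covered here. At 14 and 15 reads, INSIG2 was limited by depth.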

Other observations

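The genes around FADS2 were looked up after its value was seen, within 120 kb on either side on chromosome 11 of GRCh37. MYRF, a membrane-bound transcription factor (61520108 to 61555990, plus strand), had 32 reads in HBE LIEA, 1739 in A549 and 11 in HBE Smart-seq2, a 60.3-fold higher level in A549 than in HBE LIEA. TMEM258, whose annotated span overlaps that of MYRF on the other strand, had 136, 78 and 61 reads (log2 ratio -0.65). FEN1, a nuclease of DNA replication and repair whose span overlaps that of FADS2 on the same strand, had 1393, 376 and 2606 reads (-1.74). FADS3, the third gene of the desaturase family at this place (61640991 to 61659523, minus strand), had 539, 112 and 398 reads (-2.12), lower in A549 than in HBE LIEA. FTH1, the ferritin heavy chain, had 2948, 11048 and 62044 reads (2.05), or 9.02, 11.08 and 12.32 log2 rpkM, highest in HBE Smart-seq2. Neighbours of FADS2 thus lay on both sides of 0, and whether reads of overlapping genes were shared between them was not tested.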
